A study of Mus musculus with 20 samples.

Results

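The genes described here are 9 markers and regulators of the neuroendocrine and lineage-plastic states of prostate cancer: Chga, Syp, Eno2, Insm1, Ncam1, Sox2, Sox9, Cadm2 and Rest. They were chosen by name with earlier results of these data known, as were the other gene lists used below. Of the 9, 7 are among the 17104 genes listed in at least 1 of the deposited tables. Cadm2 was taken because it was higher in resistant tumors, so its levels in the comparisons that use the Naive or Resist libraries are given as a description with no test. Insm1 and Sox2 are listed in none of the tables, and a gene that is not listed cannot be read as 0, because the table of Naive and Resist tumors also lists 704 genes at 0 in every library.

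Neuroendocrine prostate cancer is a state in which tumor cells that once depended on androgen lose luminal identity and express genes of nerve and hormone-secreting cells. Chromogranin A and synaptophysin, products of Chga and Syp, sit in secretory granules and synaptic vesicles, Eno2 encodes the enolase of neurons, and Insm1 and Sox2 encode transcription factors of the neuroendocrine and stem-like states. Rest encodes the repressor that binds RE1 sites and keeps neuronal genes silent outside the nervous system, so that its level is usually read beside that of its target genes.

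Tumor cells were taken from bone lesions that formed after 400000 MycCaP-Bo cells, a bone-selected derivative of the Myc-driven mouse prostate cancer line MycCaP, were injected into the heart of mice 4 to 6 weeks old. CD45- iRFP+ cells were sorted, and each of the 5 libraries per group pooled the cells of 3 mice. Naive tumors received vehicle, and Resist tumors received the anti-androgen enzalutamide at 30 mg/kg for 18 days. Resist-Mac tumors received the same drug together with clodronate liposomes, which deplete macrophages, at 1 mg per mouse during the last 4 days, and vehicle-treated tumors given clodronate for 4 days are called Naive-Mac here. All groups thus rest on 1 cell line, and p-values measure the spread between pooled libraries. The labels place Naive and Resist libraries in batch 1, Resist-Mac in batch 2 and Naive-Mac in batch 3, so that batch and condition cannot be told apart in every comparison other than Resist vs. Naive.

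Expression is given as FPKM, fragments scaled to transcript length and to the mapped fragments of the library, with no read counts, so the depth behind a value is unknown. The sorted cells carried luminal prostate genes: in Naive tumors Foxa1 averaged 87.5 ± 5.09 FPKM (SD, n = 5), Krt8 317 ± 89.0 and Psca 169 ± 41.4. Other luminal genes were near 0, with Krt18 at 0.052 ± 0.0545, Cdh1 at 0.012 ± 0.011 and Tmprss2 at 0 in all 5 Naive libraries, and Pbsn is listed in no table. Summed transcripts of 8 neutrophil markers ranged from 170 to 1226 FPKM in Naive and from 59.9 to 580 in Resist libraries. They ranged from 391 to 8479 in Resist-Mac and from 58.6 to 6027 in Naive-Mac libraries. Those of the 4 listed erythroid markers ranged from 53.9 to 106.5 FPKM in Naive and from 105.9 to 199.4 in Resist libraries. In Resist-Mac libraries they ranged from 129.6 to 310.1 and in Naive-Mac libraries from 213 to 949.5. The 8 macrophage markers summed to 2.95 to 20.2 FPKM in Naive and to 1.8 to 13.2 in Resist libraries. They summed to 4.76 to 88.0 in Resist-Mac and to 1.09 to 24.4 in Naive-Mac libraries. The 3 listed osteoclast markers summed to 1.74 to 9.37 FPKM in Naive and to 0.36 to 6.79 in Resist libraries. Their sums were 2.01 to 38.0 in Resist-Mac and 0.06 to 22.0 in Naive-Mac libraries. Over the 20 libraries, the 5 endothelial markers summed to 0.08 to 3.04 and the 5 B cell markers to 0 to 6.72.

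The neuroendocrine markers Chga, Syp and Eno2 stayed near 0 in naive and in resistant tumors. In the libraries of Naive tumors, Chga was at 0, 0, 0, 0.04 and 0 FPKM, and in those of Resist tumors at 0, 0, 0, 0.09 and 0. It was at 0 in all 5 Naive-Mac libraries and is not listed for Resist-Mac. Each group that lists Chga above 0 does so in 1 library.

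Syp was at 0, 0.07, 0, 0.03 and 0.04 FPKM in Naive and at 0.06, 0.06, 0.03, 0 and 0.03 in Resist libraries. It ranged from 0.04 to 0.08 in Resist-Mac and from 0 to 0.08 in Naive-Mac libraries. The groups overlapped, and no library of the 20 reached 0.1 FPKM. Eno2 was at 0 in all Naive and all Naive-Mac libraries, at 0.03 in 2 of the 5 Resist libraries and at 0.11 in 1 Resist-Mac library.

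With near 0 defined as a group mean under 0.1 FPKM, these 3 of the 7 listed members were near 0 in Naive, Resist and Naive-Mac tumors, and the 2 of them that are listed were near 0 in Resist-Mac tumors. Over all listed genes, 28.0% were near 0 in Naive, 26.3% in Resist, 14.3% in Resist-Mac and 25.5% in Naive-Mac tumors. No gene listed for Resist-Mac was at 0 in every library, beside 704 for Naive and Resist and 1755 for Naive-Mac. The Resist-Mac share thus has another base, and whether genes at 0 were left out there is not known. None of the 3 genes reached the 1 FPKM needed for a test, so no change was tested for them, and a difference between means such as 0.008 and 0.018 FPKM for Chga rests on a single library in each group.

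The reference promoters of the near-0 genes Chga and Syp are shown beside that of Cadm2, which was expressed, because the members differ so widely in level. Promoters of 5 of the 9 members were found in the RefSeq table of GRCm38.p6, those of Chga, Syp, Eno2, Sox2 and Cadm2. Each run holds the 250 bases before the gene start on the strand of the gene, at chr12:102554691-102554940 (plus strand) for Chga, chrX:7638330-7638579 (plus strand) for Syp and chr16:67620909-67621158 (minus strand) for Cadm2. Capitals mark the matches to 4 motifs searched on both strands, CACGTG (the E-box of Myc), TGACGT (the core of the cyclic AMP response element), AGAACA (a part of the androgen response element) and GGACAG (the end of the RE1 site of Rest). TGACGT was picked after the sequences had been seen.
Chga: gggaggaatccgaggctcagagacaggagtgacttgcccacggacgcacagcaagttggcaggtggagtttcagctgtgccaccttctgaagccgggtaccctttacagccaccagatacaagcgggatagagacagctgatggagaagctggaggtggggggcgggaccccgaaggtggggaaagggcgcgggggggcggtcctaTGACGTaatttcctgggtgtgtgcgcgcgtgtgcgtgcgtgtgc
Syp: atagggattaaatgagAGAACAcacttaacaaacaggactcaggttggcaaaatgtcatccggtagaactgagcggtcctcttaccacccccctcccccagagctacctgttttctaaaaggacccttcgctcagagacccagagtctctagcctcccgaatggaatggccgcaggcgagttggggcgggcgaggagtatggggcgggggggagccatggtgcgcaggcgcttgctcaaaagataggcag
Cadm2: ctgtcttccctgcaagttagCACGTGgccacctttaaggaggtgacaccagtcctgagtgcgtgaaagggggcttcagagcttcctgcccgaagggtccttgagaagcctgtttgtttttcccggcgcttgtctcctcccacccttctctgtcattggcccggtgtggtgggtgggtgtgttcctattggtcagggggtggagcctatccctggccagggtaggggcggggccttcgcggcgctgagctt
The Chga promoter held TGACGT at -44 from the gene start, the Syp promoter AGAACA at -234 and the Cadm2 promoter CACGTG at -230. Of all 32851 promoters in the table, 6.47% held TGACGT, 16.1% AGAACA, 6.02% CACGTG and 18.7% GGACAG. No promoter of the 5 members held GGACAG, which says only that these letters are not in these windows. The GC content was 62.4% for Chga, 56.4% for Syp and 60.8% for Cadm2, beside a median of 52.4% over all promoters.

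The listed regulators of the wider neuroendocrine program were also mostly near 0. Of 21 neuroendocrine transcription factors and regulators, 8 are listed for Naive and Resist tumors, and 7 of these were near 0 in each group, among them Mycn, Dll3, Myt1 and St18. Neurod1, Pou3f2, Foxa2, Onecut2, Nkx2-1, Isl1 and Srrm4 are among the 12 that are listed in none of the tables. Hes6, a relative of the Hes repressors that promotes neuronal differentiation, was the exception.

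In Naive libraries Hes6 was at 3.90, 3.23, 2.76, 3.27 and 3.73 FPKM, and in Resist libraries at 8.51, 4.61, 8.12, 7.58 and 5.67. Every Resist library was above every Naive library, and the change was 0.83 on the log2(FPKM + 1) scale (SE 0.146 by limma, adjusted p = 0.0029). Of all 10119 genes tested in this comparison, 6.35% were called (an adjusted p under 0.05 together with a fold of more than 1.5), and 5.25% were called higher. Hes6 was higher still in both macrophage-depleted groups, 11.6 ± 2.33 FPKM in Resist-Mac and 9.32 ± 1.49 in Naive-Mac tumors (SD, n = 5).

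Granins and enzymes of peptide hormone processing were split. Chgb, Scg3 and Pcsk1n were near 0 in each group that lists them, and Scg2, Scg5, Pcsk1, Pcsk2 and Resp18 are listed in no table. Vgf averaged 1.56 ± 0.465 FPKM in Naive and 1.15 ± 0.65 in Resist tumors. Cpe, the carboxypeptidase that trims prohormones, was abundant, with 393 ± 31.3 FPKM in Naive, 540.4 ± 42.2 in Resist, 360 ± 71.2 in Resist-Mac and 151 ± 21.7 in Naive-Mac tumors. Pam, which amidates peptide hormones, was at 55.12, 54.61, 61.92, 54.77 and 54.16 FPKM in Naive and at 106.84, 81.28, 71.80, 118.67 and 74.40 in Resist libraries. The groups of Pam did not overlap, and it rose by 0.65 on the log2 scale (SE 0.127 by limma, adjusted p = 0.00498). That made 1 of 3 tested genes of this list called, beside 6.35% of all genes tested. Without Resist replicate 4 the change of Pam was 0.55, below the fold threshold.

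**Figure D1:**
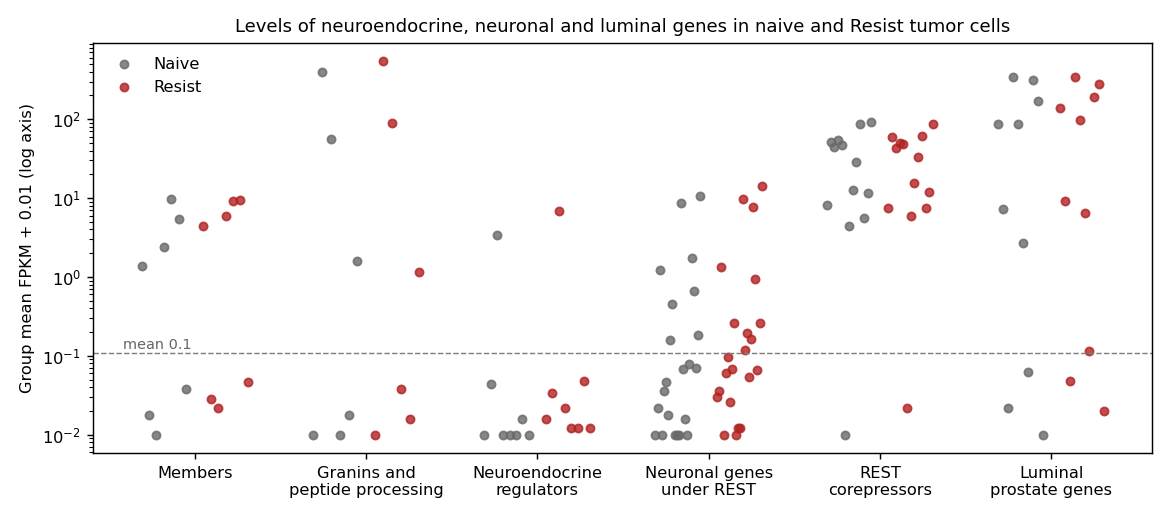
Group mean FPKM plus 0.01, on a log axis, of each listed gene in the members and 5 gene lists, in Naive (grey) and Resist (red) tumors, where each point is 1 gene and the dashed line marks a mean of 0.1 FPKM. Chga, Syp and Eno2 lie under the line with 7 of 8 neuroendocrine regulators, while corepressors of Rest other than L3mbtl1 lie above 1 FPKM.

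Ncam1 (Entrez gene 17967), which encodes the neural cell adhesion molecule CD56 and is used as a neuroendocrine marker in pathology, was expressed and rose in resistant tumors. In Naive libraries it was at 2.00, 2.09, 2.44, 2.67 and 2.84 FPKM, and in Resist libraries at 4.98, 6.79, 7.03, 7.12 and 3.71. All 5 Resist libraries were above the highest Naive library, and the mean was 2.46 times as high. The change was 1.00 on the log2(FPKM + 1) scale (SE 0.153 by limma, adjusted p = 0.00133), and it lay between 0.93 and 1.13 when each library was left out in turn. Groups did not overlap for 12.8% of all genes tested in Resist vs. Naive.

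The 9 markers of bone stromal cells summed to 10.7 to 16.1 FPKM in Naive and to 11.4 to 33.0 in Resist libraries, ranges that overlap, and the 3 tested, Col1a1, Col1a2 and Runx2, had a median change of 0.89 with none called, while Sp7 and Bglap were near 0. Col1a1 was at 3.40, 0.17, 7.78, 4.86 and 13.52 FPKM in Resist libraries 1 to 5. The library with the least Col1a1, Resist replicate 2, had 6.79 FPKM of Ncam1 and 81.28 of Pam. It also had the least Rbfox3 (2.36) and the least Hes6 (4.61) of the group. The library with the most Col1a1, Resist replicate 5, had the least Ncam1 and the least Cadm2 of the group. The erythroid marker Hba-a1, whose reads may be shared with a near-identical copy, was higher in every Resist than in every Naive library, at 53.37 to 104.23 FPKM in Naive and 105.02 to 197.34 in Resist (0.78, SE 0.211 by limma, adjusted p = 0.0245). The part of these cells in the changes of Ncam1, Hes6, Pam and Rbfox3 was not tested. Fewer cells of a type and less RNA per cell cannot be told apart in these pooled libraries.

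The rise of Ncam1 was also present between the macrophage-depleted groups, whose libraries are not used in Resist vs. Naive. Ncam1 was at 4.52, 3.58, 3.64, 3.60 and 2.66 FPKM in Resist-Mac and at 0.57, 0.72, 0.14, 0.48 and 0.38 in Naive-Mac libraries, with no overlap. The change was 1.66 (SE 0.162 by limma, adjusted p = 2.84e-06), in a comparison in which 46.2% of 9760 genes were called, 37.2% were called higher in Resist-Mac, groups of 47.8% did not overlap and the median gene was 0.34 higher. In this comparison and in both depletion comparisons the change followed transcript length, with Spearman's rho across genes of 0.607 here, 0.709 for Naive vs. Naive-Mac and 0.642 for Resist vs. Resist-Mac, beside 0.155 in Resist vs. Naive. The longest transcripts of Cadm2 (9564 bases), Rest (7004) and Ncam1 (6564) exceed the median of 3282 to 3360 bases of the genes tested. After correction for transcript length and GC content, the change of Ncam1 was 0.94 in Resist-Mac vs. Naive-Mac (SE 0.179 by limma, adjusted p = 0.000759) and 0.95 in Resist vs. Naive.

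Macrophage depletion went with lower Ncam1 in naive tumors only before that correction. The change in Naive vs. Naive-Mac was 1.23 (SE 0.134 by limma, adjusted p = 1.75e-06) and became 0.06 (SE 0.142, adjusted p = 0.73) with it. In Resist vs. Resist-Mac the change was 0.57 (SE 0.171 by limma, adjusted p = 0.0173), below the fold threshold, and 4 of 5 Resist libraries were above the highest Resist-Mac library. The corrected value there was 0.09.

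**Figure D2:**
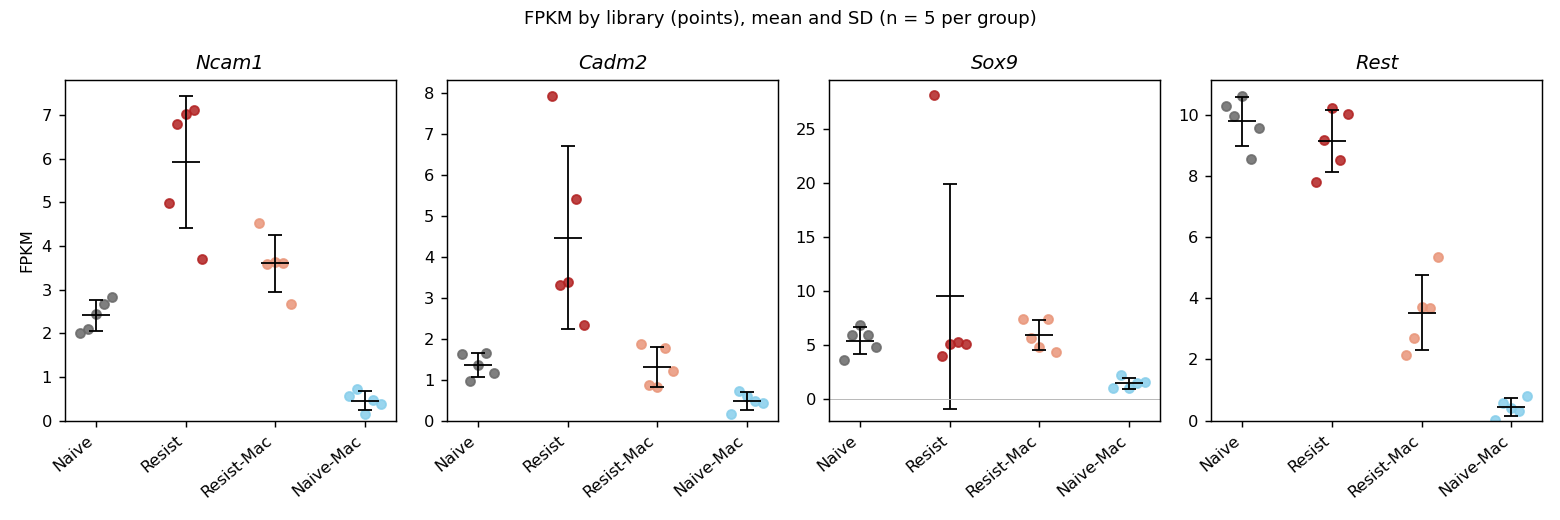
FPKM of Ncam1, Cadm2, Sox9 and Rest in every library of the 4 groups (points, n = 5 per group), with the mean and SD as bars. Ncam1 and Cadm2 have their highest mean in the Resist group, the single high point of Sox9 is Resist replicate 1, and Rest falls from about 10 FPKM in Naive to under 1 in Naive-Mac libraries.

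Cadm2 (Entrez gene 239857), a synaptic cell adhesion molecule of the immunoglobulin superfamily, was chosen for its level in Resist tumors. It was at 1.63, 0.97, 1.35, 1.66 and 1.17 FPKM in Naive, at 7.93, 3.30, 3.37, 5.40 and 2.33 in Resist and at 1.87, 0.86, 0.83, 1.78 and 1.20 in Resist-Mac libraries. The lowest Resist library was above the highest of both other groups. The Resist mean of 4.47 ± 2.24 FPKM (SD, n = 5) was 3.29 times that of Naive and 3.41 times that of Resist-Mac tumors. On the log2 scale these differences were 1.13 and 1.18, and the second was 0.68 after the length and GC correction.

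Between Resist-Mac and Naive-Mac tumors the call of Cadm2 depended on the processing. The choice against Naive did not use these libraries, but earlier results had also ranked Cadm2 in Resist vs. Resist-Mac. The test below is therefore not independent of the choice. Cadm2 was at 0.16, 0.73, 0.59, 0.47 and 0.43 FPKM in Naive-Mac libraries, all below every Resist-Mac and every Naive library. Tested with a lower filter of 0.1 FPKM, it was higher in Resist-Mac than in Naive-Mac tumors by 0.63 (SE 0.167 by limma, adjusted p = 0.00581), where 33.0% of 11778 genes were called higher. With the length and GC correction the difference was 0.12 (SE 0.17, adjusted p = 0.573), and without Naive-Mac replicate 1, Resist-Mac replicate 1 or Resist-Mac replicate 4 it was 0.55, 0.55 and 0.56, each below the fold threshold. The difference of Naive from Naive-Mac tumors, given with no test because the choice used the Naive libraries, was 0.68 on the log2 scale with this filter and -0.30 after the correction.

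Among 15 other adhesion molecules of the immunoglobulin superfamily, 14 are listed for Naive and Resist tumors and 3 were tested in Resist vs. Naive, with none called. Their median change was 0.25, beside 0.03 over all genes tested. Cadm1, a relative of Cadm2, was far more abundant, with 35.3 ± 3.15 FPKM in Naive and 47.2 ± 6.26 in Resist tumors, Cadm4 was at 15.2 ± 0.99 and 13.6 ± 1.75, and Cadm3 and Ncam2 were near 0.

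Sox9 (Entrez gene 20682), a transcription factor of prostate progenitor cells and of cartilage, stood high in a single library. It was at 3.58, 5.93, 6.86, 5.91 and 4.82 FPKM in Naive and at 28.15, 3.95, 5.13, 5.24 and 5.11 in Resist libraries. Resist replicate 1 was above all other libraries, and the other 4 Resist libraries lay within the range of Naive tumors. The change in Resist vs. Naive was 0.35 (SE 0.398 by limma, adjusted p = 0.567) and became -0.11 (adjusted p = 0.624) without Resist replicate 1, when the Resist mean fell from 9.52 ± 10.4 to 4.86 ± 0.608 FPKM (SD, n = 4).

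Of 10119 genes, Sox9 had the largest excess of Resist replicate 1 over the next Resist library, 2.22 on the log2 scale, followed by Cish with 1.34, Fgfr3 with 1.21 and Cd99 with 1.12. The cartilage genes Col2a1, Acan and Comp were at 0.01, 0.01 and 0.09 FPKM in that library, and Col2a1 reached 1.36 in Resist replicate 4, where Sox9 was at 5.24. Col11a1 was at 0.35 FPKM in Resist replicate 1, between 0.21 and 0.52 in the Resist group and between 0.04 and 0.22 in Naive libraries. Hapln1, the chondrocyte marker that was expressed, was at 16.11 FPKM in Resist replicate 1 and between 7.39 and 23.38 in the Resist group. The summed chondrocyte markers ranged from 10.0 to 24.0 FPKM in Resist and from 17.7 to 28.9 in Naive libraries. The cause of the single high Sox9 value was not tested.

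Sox9 was at 7.39, 5.65, 4.81, 7.45 and 4.39 FPKM in Resist-Mac and at 1.02, 2.23, 1.00, 1.51 and 1.62 in Naive-Mac libraries. The Naive-Mac libraries lay below every other library of the study, and groups did not overlap for 66.0% of genes in Naive vs. Naive-Mac, 37.5% of all genes being called higher in Naive. Sox9 was called in Naive vs. Naive-Mac (1.37, SE 0.173 by limma, adjusted p = 7.21e-06), in which 59.7% of 9837 genes were called and the median gene was 0.23 higher, and in Resist-Mac vs. Naive-Mac (1.49, SE 0.187 by limma, adjusted p = 1.94e-05). With the length and GC correction both calls held, at 0.97 and 1.25. In Resist vs. Resist-Mac the change was 0.24 and became -0.23 without Resist replicate 1. Of 13 Sox relatives, 10 are listed for Naive and Resist tumors, 7 were near 0 in each group, and Sox12 was the only one tested, with 3.32 ± 0.715 FPKM in Naive and 4.71 ± 0.705 in Resist tumors and no call.

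Rest (Entrez gene 19712) did not differ detectably between naive and resistant tumors and was lower in both macrophage-depleted groups. It was at 10.29, 9.94, 10.61, 8.54 and 9.55 FPKM in Naive and at 7.79, 9.16, 10.21, 8.53 and 10.02 in Resist libraries. The groups overlapped, and the change was -0.09 (SE 0.0868 by limma, adjusted p = 0.484).

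In Resist-Mac libraries Rest was at 2.14, 2.71, 3.71, 3.69 and 5.35 FPKM and in Naive-Mac libraries at 0.02, 0.59, 0.42, 0.32 and 0.81. Every Resist-Mac library was below every Resist library, and every Naive-Mac library below every Resist-Mac library. The change was 1.20 in Resist vs. Resist-Mac (SE 0.171 by limma, adjusted p = 0.000229), where 21.7% of 10049 genes were called, 9.71% higher in Resist, and groups of 29.7% did not overlap. It was 2.94 in Naive vs. Naive-Mac (SE 0.148 by limma, adjusted p = 1.63e-09). Resist-Mac was 1.64 above Naive-Mac tumors (SE 0.212 by limma, adjusted p = 2.3e-05). After the length and GC correction these changes were 0.72, 1.80 and 0.96, and all were still called. In a model over all 20 libraries the depletion change of Rest differed by -1.73 between resistant and naive tumors, being smaller in resistant ones (SE 0.231 by limma, adjusted p = 3.35e-06), with 51.9% of 9876 genes differing at an adjusted p under 0.05. Batch cannot be told apart from depletion in these values.

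**Figure D3:**
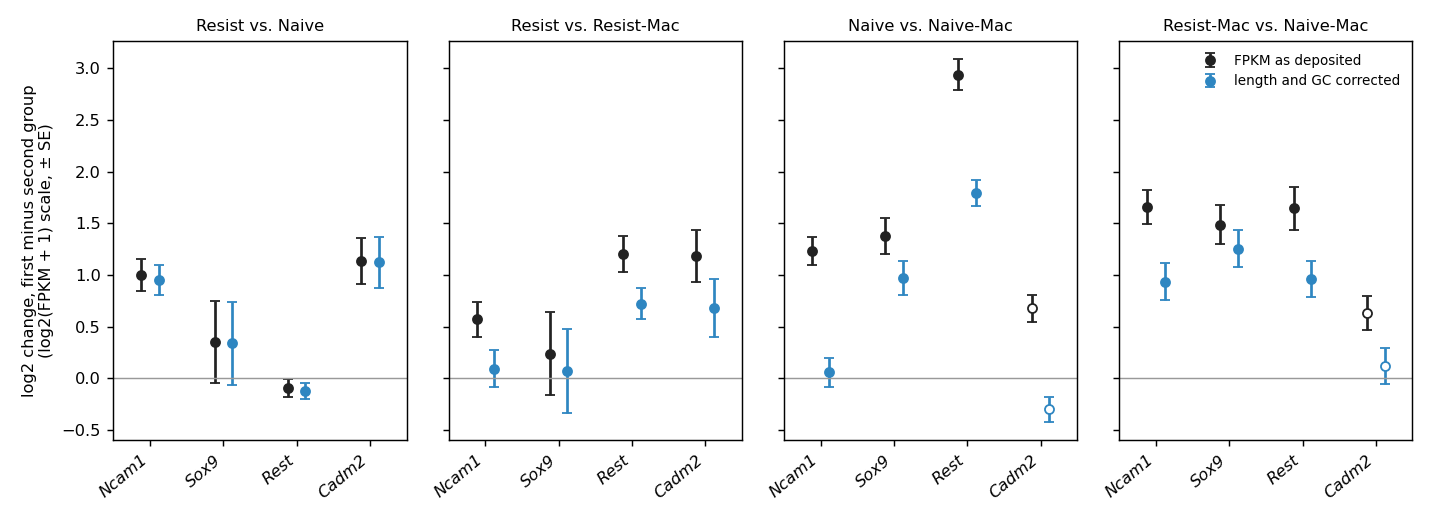
Log2 change of Ncam1, Sox9, Rest and Cadm2 in each comparison (first minus second group, on the log2(FPKM + 1) scale, with SE) for FPKM as deposited (black) and after correction for transcript length and GC content (blue), where open circles are values with the 0.1 FPKM filter. The pair of points lies close together in Resist vs. Naive, and the correction lowers every value of Ncam1 and Rest in the other comparisons.

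Of 13 corepressors that act with Rest, 12 were tested and none was called in Resist vs. Naive, with a median change of 0.03, equal to that of all genes tested. In Resist vs. Resist-Mac Rcor1 (33.3 and 18.8 FPKM) and Med12 (15.4 and 8.79) were called higher and Hdac1 (43.7 and 70.4) lower in Resist, where 12.0% of all genes were called lower. In Naive vs. Naive-Mac 9 were higher in Naive tumors and 2 were lower, where 37.5% of all genes were called higher and 22.1% lower, and the change of Rcor1, whose product links Rest to the demethylase Kdm1a, was 2.97 (SE 0.213 by limma, adjusted p = 3.11e-08). The correction left the call of Rcor1 there, at 2.06, and removed those of Rcor1, Med12 and Hdac1 in Resist vs. Resist-Mac, at 0.44, 0.22 and -0.42. Hdac1 was not called with quantile normalization either, at -0.45.

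Many of the listed neuronal genes under Rest were near 0 in every group. Of 29 genes, 14 of the 22 listed were near 0 in Naive, 12 of 22 in Resist, 8 of the 18 listed in Resist-Mac and 12 of the 19 listed in Naive-Mac tumors. Tubb3, Nrxn2, Elavl3 and Stmn2 were among them in every group, and Snap25, Syt1, Syt4 and Gap43 are listed in no table. In Resist vs. Naive 4 genes of the list were tested, all 4 with a positive change. Of these, 1 was called higher, where 5.25% of all genes were called higher. The list median was 0.29, beside 0.03 over all genes tested. Rab3a and Vamp2, which are part of the vesicle machinery in many cell types, averaged 8.54 ± 1.55 and 10.6 ± 1.14 FPKM in Naive and 9.82 ± 1.16 and 14.3 ± 2.52 in Resist tumors.

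Rbfox3, the splicing factor that carries the neuronal nuclear antigen NeuN and belongs to the list of Schwann cell and neuron markers, rose in resistant tumors. It was at 1.57, 1.04, 1.59, 1.77 and 0.66 FPKM in Naive and at 6.94, 2.36, 5.63, 14.70 and 5.81 in Resist libraries, with no overlap. The change was 1.65 (SE 0.316 by limma, adjusted p = 0.00454), and in Resist-Mac vs. Naive-Mac it was 1.30 (SE 0.195 by limma, adjusted p = 7.76e-05) and 1.07 after the length and GC correction. With quantile normalization the second value was 0.55 and no longer called (adjusted p = 0.0503). In the same list, 5 of the 8 listed genes were near 0 in Naive and in Resist tumors. Among these, S100b and Tubb3 were at most at 0.078 FPKM on average in every group that lists them. Mbp, also of this list, averaged 4.26 FPKM in Naive, 4.35 in Resist-Mac and 1.98 in Naive-Mac tumors. Its change in Resist vs. Naive was 0.003. The summed list was not higher in Resist (37.1 to 53.1 FPKM) than in Naive libraries (45.4 to 53.8), mostly through Erbb3.

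**Figure D4:**
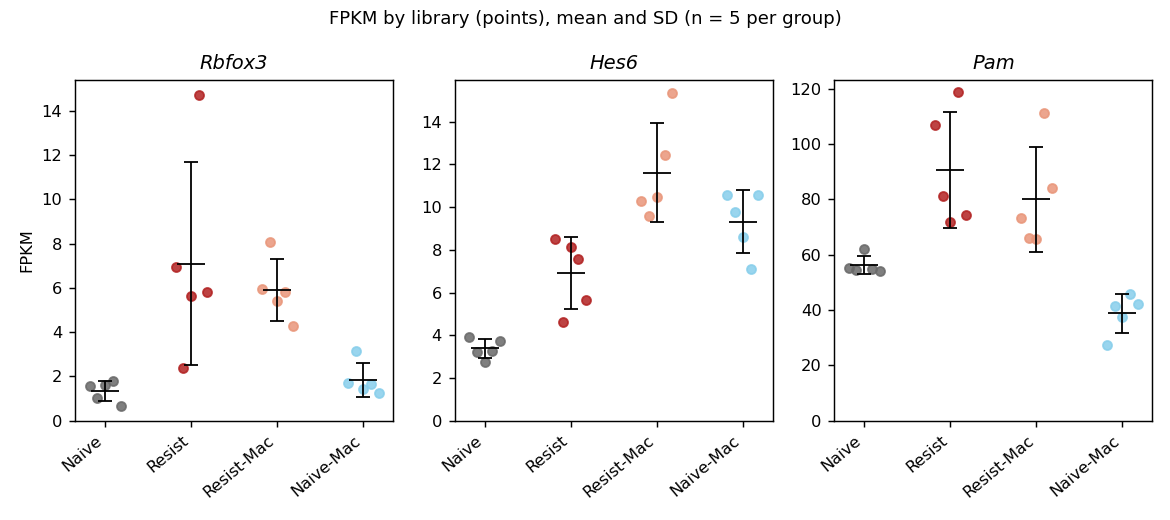
FPKM of Rbfox3, Hes6 and Pam in every library of the 4 groups (points, n = 5 per group), with the mean and SD as bars. In each panel every Resist library is above every Naive library, and Rbfox3 and Pam are also higher in every Resist-Mac than in every Naive-Mac library.

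Pam rose in the same pair of comparisons, by 1.02 in Resist-Mac vs. Naive-Mac (SE 0.167 by limma, adjusted p = 0.000157) and by 0.78 after the correction. Hes6 did not: its change there was 0.28, below the median gene, and it was lower in Naive than in Naive-Mac tumors, with a change of -1.23 (SE 0.128 by limma, adjusted p = 1.11e-06) and in Resist than in Resist-Mac tumors, with a change of -0.69 (SE 0.168 by limma, adjusted p = 0.00593). The correction left the first, at -0.60, and not the second, at -0.33.

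Relatives of the near-0 markers Eno2 and Syp were expressed. Of the enolases, Eno1 averaged 972 ± 54.1 FPKM in Naive and 816 ± 112 in Resist tumors, Eno1b 467 ± 33.4 and 410 ± 55.9, and the muscle enolase Eno3 56.4 ± 3.89 and 91.2 ± 15.6. Eno1 and Eno1b are near-identical copies, so that the division of reads between them is uncertain. Eno3 rose in Resist vs. Naive by 0.67 (SE 0.107 by limma, adjusted p = 0.00159), and in both depletion comparisons Eno1 and Eno1b were called lower without depletion with FPKM as deposited. Quantile normalization ended the call of Eno1 in Resist vs. Resist-Mac (-0.25) and those of Eno1b (-0.34) and Eno1 in Naive vs. Naive-Mac, where the sign of Eno1 turned (0.45), and the length and GC correction ended the call of Eno1 in that comparison (-0.19). Sypl and Syngr2, relatives of Syp in vesicles of other tissues, averaged 59.9 ± 4.71 and 109 ± 4.03 FPKM in Naive tumors and were not called in Resist vs. Naive.

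Of 7 luminal genes tested in Resist vs. Naive none was called lower, and the list median was 0.21. Few genes were called lower there at all, 112 of 10119 tested. Hoxb13, a homeobox factor of the prostate, was called higher, at 2.66 ± 0.395 and 6.54 ± 0.45 FPKM (1.05, SE 0.0957 by limma, adjusted p = 6.74e-05). Krt8 was at 317 ± 89.0 and 190 ± 76.5 FPKM, a change of -0.79, and was not called.

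Of 28 genes of plasticity and stem cell states, 19 were tested in Resist vs. Naive, 2 were called higher and none lower. Over all genes tested there, 5.25% were called higher. The list median was 0.04, beside 0.03 over all genes tested. Aldh1a1, an aldehyde dehydrogenase of progenitor cells, rose from 340 ± 37.6 to 675 ± 62.1 FPKM (0.99, SE 0.0856 by limma, adjusted p = 4.94e-05), and Cd44, a hyaluronan receptor, from 7.80 ± 0.832 to 12.9 ± 1.79 (0.65, SE 0.1 by limma, adjusted p = 0.00134). With quantile normalization the change of Cd44 was 0.56, below the fold threshold. The Polycomb genes Ezh2, Eed and Suz12, the tumor suppressors Rb1 and Trp53, and Sox4 were tested and not called.

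Over the 10 Naive and Resist libraries, the genes whose log2(FPKM + 1) followed each member most closely were Maml2 (r = 0.986), Cd99l2 (0.983) and Myzap (0.981) for Ncam1 and Eola1 (r = 0.978), Elmod3 (0.969) and Abcc3 (0.968) for Cadm2. For Rest they were Fancd2 (r = 0.946), Smc3 (0.938) and Chuk (0.934), and for Sox9 Midn (r = 0.939), Tbc1d10a (0.932) and Mospd3 (0.905). These Pearson correlations describe 10 libraries of 1 batch that share 2 conditions, and Resist replicate 1 lay far above the other libraries for Sox9.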

How the data were processed

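RNA of sorted tumor cells was sequenced from 20 libraries, 5 per group, with oligo dT capture on the BGISEQ-500. Per the labels, the authors aligned reads with Bowtie2 to mm9, and they deposited FPKM per gene, without counts, in 1 table for Naive and Resist, 1 for Resist-Mac and 1 for Naive-Mac libraries. The deposited values of the first table are log2(FPKM + 1) and were turned back to FPKM. Rows of transcripts without a gene name, 752 in that table and 8.45% of its FPKM, were left out.

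Comparisons used limma 3.58.1 in R 4.3.3 on log2(FPKM + 1) over the libraries of both groups, for genes listed in both tables with a mean of at least 1 FPKM. Calls needed a fold of more than 1.5 and p under 0.05 after Benjamini-Hochberg adjustment. Tests across tables set levels side by side that were normalized separately, and a fold change on this scale understates that of low genes. The alternatives were other filters, pseudocounts and scalings, a replicate block, a noise probability after the method the study used, a trend correction on transcript length and GC, and leaving out each library. The 0.1 FPKM filter for Cadm2 combined with these was chosen after seeing the data. By rule, the text names the members, up to 6 called genes with the largest change per list and comparison, up to 3 genes per list with the highest mean, and the 3 genes most correlated with each member tested in Resist vs. Naive. Cish, Fgfr3 and Cd99, and other list genes given as near 0, not listed or not called, were chosen after their values were seen. Some genes of the lists are not reported here. The members and lists were chosen with earlier results of these data known.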

Additional observations from a re-analysis of the deposited data

Results flagged for a closer look

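In groups of 5 libraries, a library was singled out where its gap to the nearest other library was large against the range of the group, a test that chance meets in about 1 in 20 groups. Of 24 groups of member values tested, 5 met it. In 3 of these, Chga in Naive and Resist and Eno2 in Resist-Mac tumors, all libraries but 1 were at 0, so that the outcome was fixed and the chance rate does not hold. Sox9 met it in Resist tumors through the 28.15 FPKM of replicate 1. The others were values near 0: Chga at 0.04 FPKM in 1 Naive and at 0.09 in 1 Resist library, Eno2 at 0.11 in 1 Resist-Mac library, and the lowest Syp value of Resist-Mac tumors, 0.04.

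The change between undepleted and depleted tumors differed between resistant and naive tumors for 3 members, in a limma model over all 20 libraries in which 51.9% of genes differed. The difference was -1.73 for Rest (SE 0.231, adjusted p = 3.35e-06), -0.66 for Ncam1 (SE 0.221, adjusted p = 0.0164) and -1.14 for Sox9 (SE 0.466, adjusted p = 0.0463). For Cadm2 it was 0.50 (SE 0.298), a value that uses the Resist libraries it was chosen on. Batch cannot be told apart from these differences.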

How the results depend on the processing

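Of 443 alternative values for the members, 389 were counted as unchanged, which for tested values meant the same direction and side of the threshold. For Cadm2 in Resist vs. Naive and Resist vs. Resist-Mac, given with no test, it meant a value close to the main one. Of 117 alternative counts of called genes, 107 were close in size to the main count, whatever their split into higher and lower, and 10 were not. For Resist vs. Naive the 643 called genes became 392 with a mean of at least 5 FPKM, 219 with a fold over 2 and 360 by the noise probability. In Resist vs. Resist-Mac 2181 became 481 (fold over 2), 898 (length and GC correction) and 1079 (noise), in Naive vs. Naive-Mac 5868 became 3659 (fold) and 3627 (noise), and in Resist-Mac vs. Naive-Mac 4509 became 2335 (fold) and 1455 (noise). Median-ratio scaling moved the median gene from 0.23 to -0.02 in Naive vs. Naive-Mac and from 0.34 to -0.01 in Resist-Mac vs. Naive-Mac, and the calls from 3691 higher and 2177 lower to 2969 and 2974, and from 3631 and 878 to 2307 and 2144. Ncam1 in Resist vs. Naive stayed at 1.00 but under a 2-fold limit, and at 1.30 it missed the noise limit. Against Resist-Mac, Resist tumors had it called with a pseudocount of 0.1 (0.68) and in 3 of the leave-one-out fits, which together ranged from 0.49 to 0.70. In Naive vs. Naive-Mac it was not called after the length and GC correction (0.058) or by noise (2.39). By noise, the calls of Rest in Resist vs. Resist-Mac (1.38), of Sox9 in Naive vs. Naive-Mac (1.88) and of Ncam1 (2.97), Sox9 (2.01) and Rest (3.03) in Resist-Mac vs. Naive-Mac were lost. The difference for Cadm2 from Naive was 1.72 by noise, and that from Resist-Mac 1.64 (pseudocount 0.1), 0.68 (length and GC) and 1.77 (noise). Sox9 turned without Resist replicate 1, within -0.11 to 0.53 in Resist vs. Naive and -0.23 to 0.41 in Resist vs. Resist-Mac. The difference in depletion change of Ncam1 was lost with median-ratio scaling (-0.51), quantile normalization (-0.33) and the length and GC correction (-0.0054). That of Sox9 was lost with no filter or a 0.1 FPKM filter (-1.14 each), the same scalings (-0.90 and -0.53), the correction (-0.92) and 15 leave-one-out fits (-1.60 to -0.96), and for Cadm2, given with no test, the value was 0.73 with quantile normalization and 1.05 with the correction. With the 0.1 FPKM filter, the difference of Cadm2 between Naive and Naive-Mac, also given with no test, was 0.56 with median-ratio scaling and 0.37 with quantile normalization and turned with the correction (-0.30). In Resist-Mac vs. Naive-Mac it was 0.46, 0.13 and 0.12 with these, none of them called, and 0.55 to 0.71 over leave-one-out fits. At a limit of 0.5 FPKM, 6 members were near 0 in Naive-Mac tumors. Other genes turned in Naive vs. Naive-Mac, Cd24a (0.19) and Psca (0.12) with the correction and Eno1 (0.45) with quantile normalization. The cause was not tested.

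Same-numbered libraries did not deviate together (correlations -0.376 to 0.356), so the numbers name libraries only. With a replicate block the called genes numbered 624 for Resist vs. Naive, 2228 when Resist was set against Resist-Mac, 5888 for Naive vs. Naive-Mac, 4534 for Resist-Mac vs. Naive-Mac and 5184 for the difference in depletion change, where Sox9 (-1.14) had a limma adjusted p of 0.0558. Depth is unknown, so values under 0.1 FPKM cannot be told from 0.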

Other observations

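Basal prostate genes were expressed without a call in Resist vs. Naive. Krt15 averaged 60.02 FPKM in Naive and 77.9 in Resist tumors, Krt14 15.9 and 22.4, and Trp63 2.19 and 2.10, while Krt5 was near 0, and none of the 4 tested was called. The sodium channel gene Scn3a, a neuronal gene under Rest, averaged 0.006 FPKM in Naive, 0.186 in Resist, 0.478 in Resist-Mac and 0.012 in Naive-Mac tumors, below the level needed for a test.

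Among plasticity genes, Klf4, a factor of pluripotency and of epithelial differentiation, averaged 104 FPKM in Naive, 144 in Resist, 69.2 in Resist-Mac and 9.96 in Naive-Mac tumors. Sox4 averaged 61.3, 63.1, 64.1 and 30.7 FPKM in the same order, and Sox11, Nanog and Lgr5 were near 0 in each group that lists them.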
